A study of Mus musculus with 44 samples.

Results

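The AP-1 transcription factor genes described here are Fos, Fosb, Fosl1, Fosl2, Jun, Junb, Jund, Atf3 and Maff, 9 of the 27179 genes counted in each library. They were chosen by gene symbol, and each symbol was matched to 1 Entrez gene in the count files. Bulk mRNA sequencing was performed on the dorsal hippocampus of adult mice in 6 groups of 6 libraries, with 3 male and 3 female mice per group as labelled. WT mice and mice homozygous for the Kdm5b deltaARID allele were compared. This constitutive allele removes part of the JmjN domain and the ARID domain of KDM5B, a histone H3 lysine 4 demethylase, so no single cell type is targeted. Both genotypes were on a mixed C57BL/6J and 129S2/Sv background. Mice were taken from the home cage (0 h), or 1 or 3 h after contextual fear conditioning (CFC), in which they explored a chamber and then received 3 footshocks. The design sets the hippocampal transcript response to training beside genotype.

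AP-1 is a family of dimers of basic leucine zipper proteins. Fos family proteins cannot form stable dimers with themselves and bind DNA with a Jun partner, whereas Jun proteins can also pair with each other. Several of these genes are immediate early genes: calcium entry and kinase signalling after synaptic activity start their transcription within minutes through factors already bound to DNA, such as CREB and SRF, without new protein synthesis. In the hippocampus, Fos mRNA is widely used as a marker of recently active neurons, and the spliced ΔFosB product of Fosb is known for its stability.

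The members lie on 8 chromosomes. In the RefSeq annotation of GRCm38, Fos (Entrez 14281) is at chr12:85473890-85477274 on the plus strand, Fosb (14282) at chr7:19302696-19310118 on the minus strand and Fosl2 (14284) at chr5:32136472-32157840 on the plus strand. Jun (16476) is at chr4:95049036-95052222 on the minus strand, Junb (16477) at chr8:84976909-84978748 on the minus strand and Jund (16478) at chr8:70697739-70700616 on the plus strand. Atf3 (11910) is at chr1:191170296-191183333 on the minus strand, Maff (17133) at chr15:79346621-79359078 on the plus strand and Fosl1 (14283) at chr19:5447698-5455938 on the plus strand. In the GENCODE annotation, exons of Fosl1, Jun, Junb and Jund overlap exons of Ccdc85b, Junos, Prdx2 and Gm11175, respectively, on the opposite strand. The strand setting of the counting is not given in the sources used here, so reads in those overlaps cannot be assigned with certainty.

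The promoters of 5 members are shown. Fos, Fosb, Junb and Maff are 4 of the 6 members called higher at 1 h and were picked because the printed stretch holds the core of a cAMP response element, so the display is no evidence that the called members share it. Of the other called members, Fosl2 had no such match and that of Atf3 lay nearer to the start than the printed stretch reaches. Jun is set beside them as a member that was not called. Each line gives 110 bases that end before the annotated start, 5′ to 3′ on the gene's strand, from the RefSeq GRCm38.p6 promoter table. Capitals mark TGACG, the core of the cAMP response element bound by CREB and ATF proteins, within TGACGTCA where the full element is present, or TGACATCA, a variant element bound by Jun and ATF dimers. The stretches are chr12:85473770-85473879 (plus strand) for Fos, chr7:19310056-19310165 (minus) for Fosb, chr8:84978759-84978868 (minus) for Junb, chr4:95052233-95052342 (minus) for Jun and chr15:79347400-79347509 (plus) for the second of the 3 annotated starts of Maff, the one whose window holds the full element.
Fos: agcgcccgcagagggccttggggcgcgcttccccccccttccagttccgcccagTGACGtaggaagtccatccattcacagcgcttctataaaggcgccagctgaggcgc
Fosb: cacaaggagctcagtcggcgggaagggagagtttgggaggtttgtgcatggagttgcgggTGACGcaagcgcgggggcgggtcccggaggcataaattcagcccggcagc
Junb: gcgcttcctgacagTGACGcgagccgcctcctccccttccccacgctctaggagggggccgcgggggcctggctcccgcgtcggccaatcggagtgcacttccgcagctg
Jun: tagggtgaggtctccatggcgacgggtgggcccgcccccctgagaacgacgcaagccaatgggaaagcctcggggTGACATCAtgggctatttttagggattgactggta
Maff: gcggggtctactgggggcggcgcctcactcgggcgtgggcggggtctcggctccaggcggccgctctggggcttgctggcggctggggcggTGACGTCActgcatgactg

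Both strands of the 250 bases before each start were searched. TGACG lay 66 to 62 and 129 to 125 bases before the Fos start, 60 to 56 before Fosb and 106 to 102 before Junb, and its reverse complement CGTCA lay 7 to 3 before Atf3. TGACGTCA, which contains TGACG on both strands, lay 29 to 22 bases before the second Maff start. TGACATCA lay 45 to 38 bases before the starts of Jun and of the third Maff model, whose window also held CGTCA 122 to 118 bases before the start. The windows of Fosl2, Jund and the first Maff start held none of these letters, and Fosl1 had no entry in the promoter table. Of 32851 windows of the same length, 17.8% held TGACG, 1.55% held TGACGTCA and 2.93% held TGACATCA. The classical AP-1 site TGANTCA and the SRF-binding CArG box were found in no member window, against 6.75% and 1.47% of all windows. TATAAA was found 33 to 28 bases before the Fos start and in 12.4% of all windows.

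Library totals ran from 40274435 to 107000233 counts. The group medians were 66925015, 66003094 and 81589026 counts in WT mice at 0, 1 and 3 h, and 65503126, 66163744 and 61390777 in mutants. Dentate granule cell, CA1 and CA3 markers had at least 10 counts in every library. The summed dentate markers had group medians of 352.4, 397.4 and 404.1 CPM (counts scaled to a common library size) in WT mice at 0, 1 and 3 h and 386.9, 448.0 and 488.8 CPM in mutant mice, with overlapping ranges. Choroid plexus markers varied widely, with group medians of their summed level of 1981, 971.5 and 2068 CPM in WT mice and 157, 90.49 and 1389 CPM in mutant mice, over a range of 12.84 to 7551 CPM, and 3 of the 4 had at least 10 counts in every library. The part of these tissue markers in the results was not tested. Kdm5b mRNA was at 86.52 ± 2.839 CPM in WT and 80.51 ± 3.957 CPM in mutant mice at 0 h (SD, n = 6 each). This count spans exons outside the deletion and is no check of the genotype labels.

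In 2 libraries the sex transcripts went against the label: the library labelled WT 1 h male 1 and the library labelled mutant 3 h female 2. The first had 51186 counts of the female transcript Xist and 0 Y-linked counts. The second had 36 Xist and 10239 Y-linked counts, so the 2 mismatches went in opposite directions. An exchange of these 2 libraries, which would also change their genotype and time, was not tested. Both libraries also stood apart from their groups in most AP-1 genes, as the map of levels by library shows. The library labelled WT 1 h male 1 lay below the other 5 WT 1 h libraries in Fos (11.67 CPM, against 19.17 to 34.44), Fosb (15.85, against 20.81 to 30.3), Junb (59.12, against 74.87 to 128.4), Atf3 (0.8334, against 1.269 to 2.069) and Fosl1 (0.01667, against 0.06117 to 0.3104). The library labelled mutant 3 h female 2 lay above the other 5 of its group in Fos (43.9 CPM, against 6.419 to 11.59), Fosb (31.36, against 13.39 to 20.82), Junb (126.7, against 45.36 to 76.04), Fosl2 (72.81, against 56.2 to 68.46), Atf3 (2.392, against 0.7718 to 1.436) and Maff (2.46, against 1.017 to 1.389). Its Fos, Fosb and Maff levels were the highest of all 36 libraries. Jun and Jund lay within the range of the group in both. The library labelled mutant 3 h female 2 also had the highest summed oligodendrocyte markers of its group, 9722 CPM, the highest astrocyte (1443 CPM) and striatum (44.31 CPM) markers and the lowest dentate granule cell markers, 313.1 CPM. The library labelled WT 1 h male 1 had the highest dentate granule cell (445.3 CPM), microglia (240.4 CPM) and striatum (35.9 CPM) markers of its group and the lowest choroid plexus (75.41 CPM), endothelium (84.79 CPM) and blood (8.001 CPM) markers. The part of these differences in the results was not tested. Both libraries were kept under their labels, and edgeR comparisons of the members, ratios and correlations that use them are also given without them where these are described, whereas DESeq2 was run with all libraries only.

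**Figure D1:**
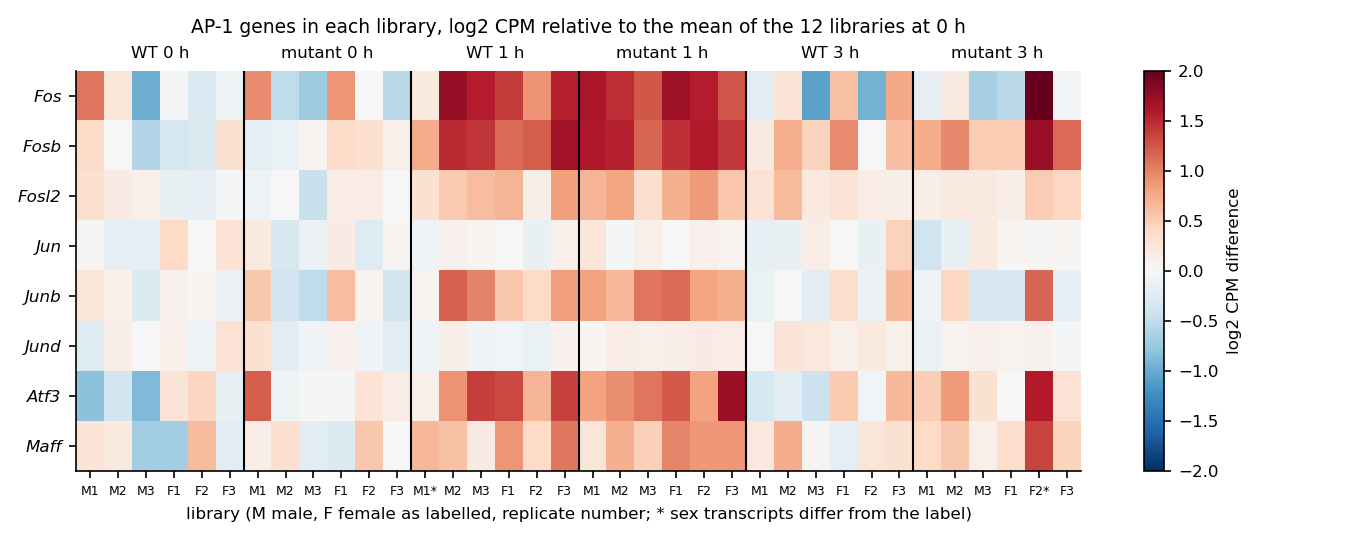
Heat map of the AP-1 genes (rows) in the 36 libraries (columns, ordered as WT and mutant at 0 h, then 1 h, then 3 h), coloured by log2 CPM relative to the mean of the 12 libraries at 0 h. Fos, Fosb, Junb and Atf3 are high in most 1 h columns, the library labelled WT 1 h male 1 is near the 0 h level in Junb (59.12 CPM) and Fos (11.67 CPM), and the library labelled mutant 3 h female 2 (Fos 43.9 CPM) stands out among the 3 h columns.

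Before training, the Jun genes were the most abundant members and Fosl1 was close to absent. Levels per kilobase of the longest protein-coding GENCODE transcript were compared over the 12 libraries at 0 h (mean ± SD, CPM per kb). Jund, a Jun protein known for steady expression, was at 110.9 ± 15.03, and its lowest library (91.93) was above the highest of Jun (48.55). Jun, at 37.29 ± 5.975, and Junb, at 32.28 ± 8.21, overlapped. Fosl2 followed at 7.919 ± 1.072, below every library of Junb, and overlapped Fos at 5.386 ± 2.669. Fos in turn overlapped Fosb, at 2.555 ± 0.542. Maff, which encodes a small Maf protein without an activation domain, was at 0.5027 ± 0.1487 and overlapped the stress-responsive repressor Atf3 at 0.4231 ± 0.1888. Fosl1, which encodes Fra-1, was at 0.04216 ± 0.04483, below every library of Atf3. Fosl1 had 0 to 21 counts per library and passed the filter on low counts in neither the time nor the genotype comparisons that used all their 12 or 24 libraries, so 8 of the 9 members were tested there.

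One hour after CFC, 6 of the 8 tested members were higher than in the home cage when both genotypes were pooled: Fos, Fosb, Fosl2, Junb, Atf3 and Maff. Higher calls made up 0.927% of all 17907 genes tested. Jun and Jund, the 2 members with the highest basal level per kilobase, were not called. The median log2 fold change was 0.69 over the members and -0.01 over all genes. Without the 2 discordant libraries the same 6 members were called, with log2 fold changes of 1.40 for Fosb, 1.33 for Fos, 1.06 for Atf3, 0.80 for Junb, 0.61 for Maff and 0.60 for Fosl2, and 1.63% of genes were called higher. In bulk tissue, more RNA per cell and more expressing cells cannot be told apart.

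Fosb, a Fos family activator, showed the clearest separation at 1 h. In WT mice the lowest, median and highest libraries were 6.285, 8.608 and 12.38 CPM at 0 h and 15.85, 23.67 and 30.3 CPM at 1 h. In mutants they were 8.292, 9.972 and 12.39 CPM at 0 h and 21.16, 26.84 and 28.84 CPM at 1 h. All 12 libraries at 1 h were above all 12 at 0 h, and Fosb was the only gene of the 17907 for which this held (0.00558%). Without the 2 discordant libraries the remaining 11 at 1 h were above all 12 for Fosb, and other genes were not counted in that setting. The log2 fold change was 1.36 (SE 0.11), or 2.569-fold, with an edgeR adjusted p of 1.54e-07.

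Fos itself varied more at rest than Fosb. Its lowest, median and highest libraries were 5.199, 9.837 and 21.47 CPM in WT and 6.252, 8.7 and 19.84 CPM in mutant mice at 0 h. They were 11.67, 28.58 and 34.44 CPM in WT and 24.21, 29.51 and 33.24 CPM in mutant mice at 1 h. At 1 h, 10 of the 12 libraries exceeded every library at 0 h, and the 2 below that line were both WT. The log2 fold change was 1.25 (SE 0.24), or 2.383-fold, with an edgeR adjusted p of 0.0128 (1.33 and 0.00263 without the 2 discordant libraries).

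Fosl2, which encodes Fra-2, rose from a higher level and by less. Its lowest, median and highest libraries in WT were 45.74, 52.84 and 64.22 CPM at 0 h and 55.68, 76.24 and 90.34 CPM at 1 h. In mutants they were 37.78, 51.06 and 57.16 CPM at 0 h and 64.06, 83.09 and 92.18 CPM at 1 h, with no overlap between the times. Over both genotypes the log2 fold change was 0.58 (SE 0.09), or 1.493-fold, with an edgeR adjusted p of 0.00249.

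Junb was the only Jun family gene called. Its lowest, median and highest libraries in WT were 46.74, 59.33 and 67.35 CPM at 0 h and 59.12, 91.93 and 128.4 CPM at 1 h. In mutants they were 39.85, 51.29 and 86.91 CPM at 0 h and 88.79, 99.03 and 124.5 CPM at 1 h. The mutant libraries did not overlap between the times, whereas 1 WT library at 1 h, the discordant one, lay within the WT range at 0 h. The log2 fold change over both genotypes was 0.75 (SE 0.14), or 1.681-fold, with an edgeR adjusted p of 0.0128. Jun, which encodes the classical Fos partner c-Jun, ran from 93.97 to 154.8 CPM at 0 h and from 105.5 to 138.3 CPM at 1 h, with a log2 fold change of 0.03 (SE 0.07), or 0.04 without the discordant libraries. Jund ran from 153.3 to 227.7 CPM at 0 h and from 166.9 to 205.5 CPM at 1 h, with a log2 fold change of 0.04 (SE 0.06), or 0.05 without them.

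Atf3 and Maff were called at 1 h from low counts, 24 to 227 and 38 to 152 counts per library over 0 and 1 h. In WT, the lowest, median and highest Atf3 libraries were 0.4112, 0.6469 and 1.062 CPM at 0 h and 0.8334, 1.73 and 2.069 CPM at 1 h. In mutants they were 0.7273, 0.83 and 1.849 CPM at 0 h and 1.389, 1.591 and 2.609 CPM at 1 h. Atf3 overlapped between the times in both genotypes, and its log2 fold change was 1.01 (SE 0.19) with an edgeR adjusted p of 0.0109. Maff ran from 0.5727 to 1.484 CPM at 0 h and from 1.064 to 1.993 CPM at 1 h, with a log2 fold change of 0.63 (SE 0.15) and an edgeR adjusted p of 0.0399. The Maff call rested on a narrow margin: it held in 8 of 24 fits that each left out 1 library, with edgeR adjusted p from 0.0194 to 0.0844. Those 8 left out WT 0 h male 1, male 2 or female 2, mutant 0 h male 2 or female 2, WT 1 h male 1 or female 2, or mutant 1 h male 1. The calls of Fos, Fosb, Fosl2, Junb and Atf3 held in all 24.

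**Figure D2:**
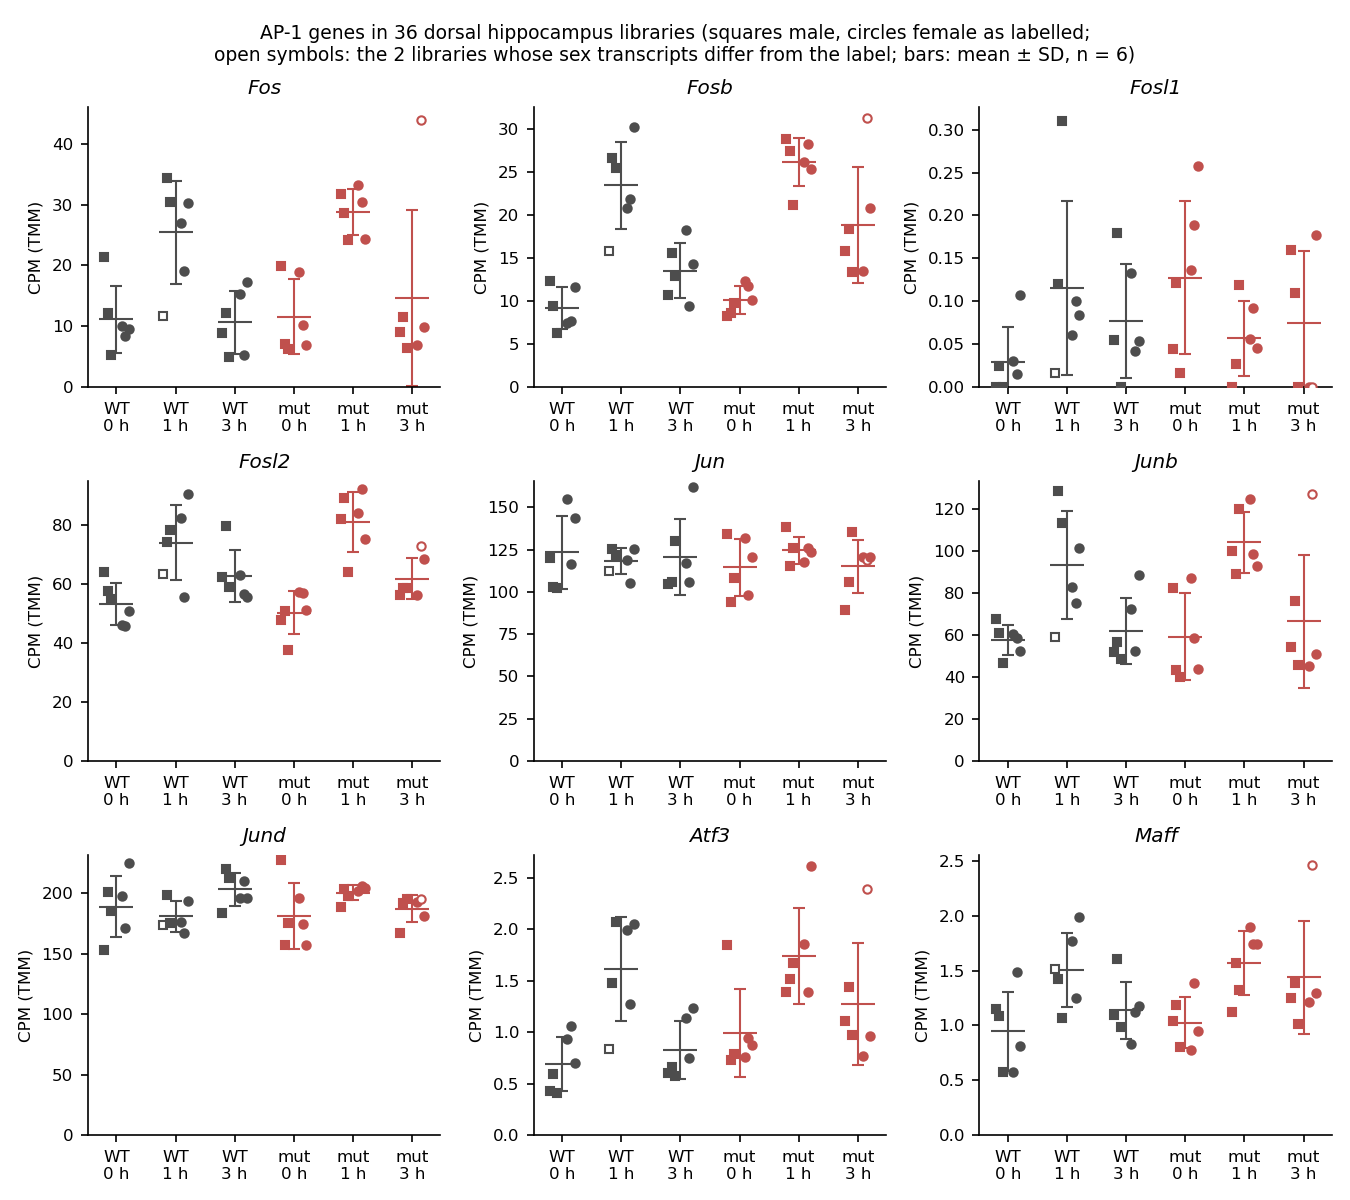
Level of each AP-1 gene (CPM, y axis from 0) in every library by genotype and time after CFC (0, 1 and 3 h), with mean ± SD of 6 libraries per group; open symbols are the 2 libraries whose sex transcripts went against the label. Fosb is at or above 15.85 CPM in every library at 1 h and at or below 12.39 CPM in every library at 0 h.

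Within each genotype, 6 members had an unadjusted edgeR p under 0.05 at 1 h, as did 11.1% of genes in mutants and 5.36% in WT, but fewer were called at 12 libraries. In mutants, Fosb rose by 1.37 on the log2 scale (SE 0.09, edgeR adjusted p = 7.84e-06) and Fosl2 by 0.69 (SE 0.09, edgeR adjusted p = 0.00843), where 0.301% of 17282 genes were called higher. Fos, Fosb, Fosl2 and Junb did not overlap between 0 and 1 h in mutants, as for 1.07% of genes, although Fos (1.31, edgeR adjusted p = 0.145) and Junb (0.81, 0.192) were not called. DESeq2 called these 4 in mutants (Fos, Fosb, Fosl2 and Junb), where it called 1.63% of genes higher. Without the library labelled mutant 0 h male 1, which had the highest Atf3 level of its group (1.849 CPM), 4 members were called, where 0.373% of genes were called higher: Fos and Atf3 passed beside Fosb and Fosl2 (edgeR adjusted p = 0.0471 and 0.0237). In WT mice, edgeR called 0 of 17319 genes (0%) and thus 0 members. At an unadjusted p under 0.05 it gave 928 genes and 6 members, and DESeq2 called 3 members (Fosb, Fosl2 and Atf3), where it called 0.0347% of genes higher. The WT log2 fold changes were 1.35 for Fosb (SE 0.20, edgeR adjusted p = 0.282), 1.21 for Fos (SE 0.36), 1.28 for Atf3 (SE 0.25), 0.69 for Junb (SE 0.17) and 0.48 for Fosl2 (SE 0.12). All 6 WT libraries at 1 h were above all 6 at 0 h for Fosb alone among the members, and for 0.167% of genes. Without the library labelled WT 1 h male 1, Fosb was called in WT (1.46, edgeR adjusted p = 0.0408), as were 0.0172% of genes, and the other changes were 1.39 for Fos, 1.38 for Atf3, 0.80 for Junb and 0.54 for Fosl2, none of them called. A fit of all 36 libraries called Fosb in WT, where 0.0055% of genes were called higher. Its adjusted p ran from 0.0408 to 0.984 over the fits that left out 1 library.

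The 1 h response was not shown to differ between genotypes. The interaction of genotype and time called 0 of 17907 genes (0%) in edgeR and 0 in DESeq2, and no member reached an unadjusted p under 0.05 (677 genes did). Without the 2 discordant libraries edgeR called 0 of 18023 genes, with 615 at an unadjusted p under 0.05. The Fosb response differed by 0.02 (SE 0.22) on the log2 scale, and by -0.07 (SE 0.21) without those libraries. That of Fos differed by 0.11 (SE 0.48), and by -0.04 (SE 0.45) without them. The members' median difference was 0.12 with them and -0.01 without. Jund had the smallest p of the members (0.21, SE 0.12, edgeR adjusted p = 0.999), with fitted changes of -0.07 in WT and 0.14 in mutants, and its difference was 0.20 (SE 0.12) without the discordant libraries.

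At 3 h after CFC, Fosb was the 1 tested member called above the home cage level. Its lowest, median and highest libraries at 3 h were 9.466, 13.63 and 18.23 CPM in WT and 13.39, 17.13 and 31.36 CPM in mutant mice. The log2 fold change against 0 h over both genotypes was 0.72 (SE 0.14), or 1.652-fold, with an edgeR adjusted p of 0.0152, and 1.16% of 17926 genes were called higher. Without the 2 discordant libraries it was 0.63 with an adjusted p of 0.00889, among 2.05% of genes called higher. The call held in all 24 fits that left out 1 library. Fosl2 was also called without WT 0 h male 1, where 0.615% of genes were called higher, and without mutant 0 h female 2, where 1.81% were. At 3 h, 10 of 12 libraries were above every library at 0 h. In mutants all 6 were, as for 0.33% of genes.

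The other members at 3 h were not called against 0 h. Fosl2 was closest (0.27, SE 0.07, edgeR adjusted p = 0.0654) and was called by DESeq2 (adjusted p = 0.0135), among 3.37% of genes called higher by it. Fos had medians of 10.5 CPM in WT and 9.483 CPM in mutant mice, close to those at 0 h, and its log2 fold change of 0.08 (SE 0.34) became -0.22 without the 2 discordant libraries, where that of Fosl2 was 0.24 (edgeR adjusted p = 0.0779). Junb had medians of 54.28 and 52.51 CPM, with a log2 fold change of 0.12 (SE 0.17), which was 0.0003 (SE 0.14) without the 2 discordant libraries and also without the library labelled mutant 3 h female 2 alone. Within each genotype, edgeR called 0 genes at 3 h against 0 h (WT 0% of 17438, mutant 0% of 17285). In each genotype 2 members had an unadjusted p under 0.05, and 1436 WT and 1481 mutant genes did. DESeq2 called 0 members in WT, where it called 0.583% of genes in either direction, and 2 in mutants (Fosb and Fosl2), where it called 0.737% higher. The Fosb changes there were 0.56 (SE 0.20, edgeR adjusted p = 0.506) in WT and 0.89 (SE 0.16, edgeR adjusted p = 0.28) in mutants, and 0.72 (edgeR adjusted p = 0.1) in mutants without the discordant library. The difference of 0.33 (SE 0.28) had an edgeR adjusted p of 1.0, and it was 0.15 (SE 0.25) without the discordant libraries. For Fos the difference went from 0.41 (SE 0.68) to -0.32 (SE 0.57). The median difference over the same 8 members was 0.07 with these libraries and -0.03 without. That interaction called 0 of 17926 genes (0%) and 0 members, with 273 genes and 0 members under an unadjusted p of 0.05 and 0 genes in DESeq2. Without the discordant libraries it called 0 of 18060 genes, with 391 under an unadjusted p of 0.05.

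Between 1 and 3 h, the number of members called lower depended on the 2 discordant libraries. With all 24 libraries, only Fosb was called (-0.64, SE 0.13, edgeR adjusted p = 0.0392), among 0.357% of 17911 genes called lower. This call held in 7 of 24 fits that left out 1 library (WT 1 h male 1 or female 3, mutant 1 h male 3 or female 3, WT 3 h female 1 or female 3, or mutant 3 h female 2). The call was not made without the filter on low counts, nor with labelled replicates as a block. Fos (-1.18, edgeR adjusted p = 0.0775), Fosl2 (-0.31, 0.0775), Atf3 (-0.72, 0.0776) and Junb (-0.63, 0.0941) were not called. Without the 2 discordant libraries 5 members were called lower, where 1.43% of 18000 genes were: Fos (-1.55, SE 0.20, edgeR adjusted p = 0.00026), Fosb (-0.78, 0.000351), Junb (-0.81, 0.00147), Atf3 (-0.89, 0.00337) and Fosl2 (-0.36, 0.0192). DESeq2 called the same 5 with all libraries, among 1.04% of genes called lower. Leaving out the library labelled mutant 3 h female 2 alone gave 5 calls, with 0.915% of genes lower, and leaving out WT 1 h male 1 alone gave 4, with 0.732%.

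Within genotypes, edgeR called 0 genes between 1 and 3 h with all libraries (0% of 17388 genes in WT, with 1288 genes and 5 members at an unadjusted p under 0.05, and 0% of 17247 in mutants, with 1387 genes and 5 members). DESeq2 called 2 members in WT (Fosb and Atf3), where it called 0.28% of genes lower, and 1 in mutants (Fosl2), where it called 0.215%. Without the discordant WT library, all 6 WT libraries at 3 h lay below the remaining 5 at 1 h in Fos, Fosb and Atf3, as for 0.725% of genes. Without the discordant mutant library, the 5 remaining mutant libraries at 3 h lay below all 6 at 1 h in Fos, Fosb and Junb, as for 0.996% of genes. Fos was then called lower in mutants (-1.71, SE 0.16, edgeR adjusted p = 0.00423), among 0.0691% of genes. No member was called in WT without the discordant library (Fosb -0.88, edgeR adjusted p = 0.132). Fos in those 5 mutant libraries was 8.788 ± 2.126 CPM, against 14.64 ± 14.46 CPM in all 6.

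Without sex as a covariate, DESeq2 called 2 members higher at 1 h against 0 h in WT, where it called 0.0448% of genes higher, and 4 in mutants, where it called 1.96%. At 3 h against 0 h it called Fosb in mutants (0.905% of genes) and Fosb and Fosl2 in both genotypes (3.46%). At 3 h against 1 h it called Fosb lower in WT (0.201%), Fosl2 in mutants (0.234%) and Fos, Fosb, Fosl2 and Junb in both (1.25%).

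**Figure D3:**
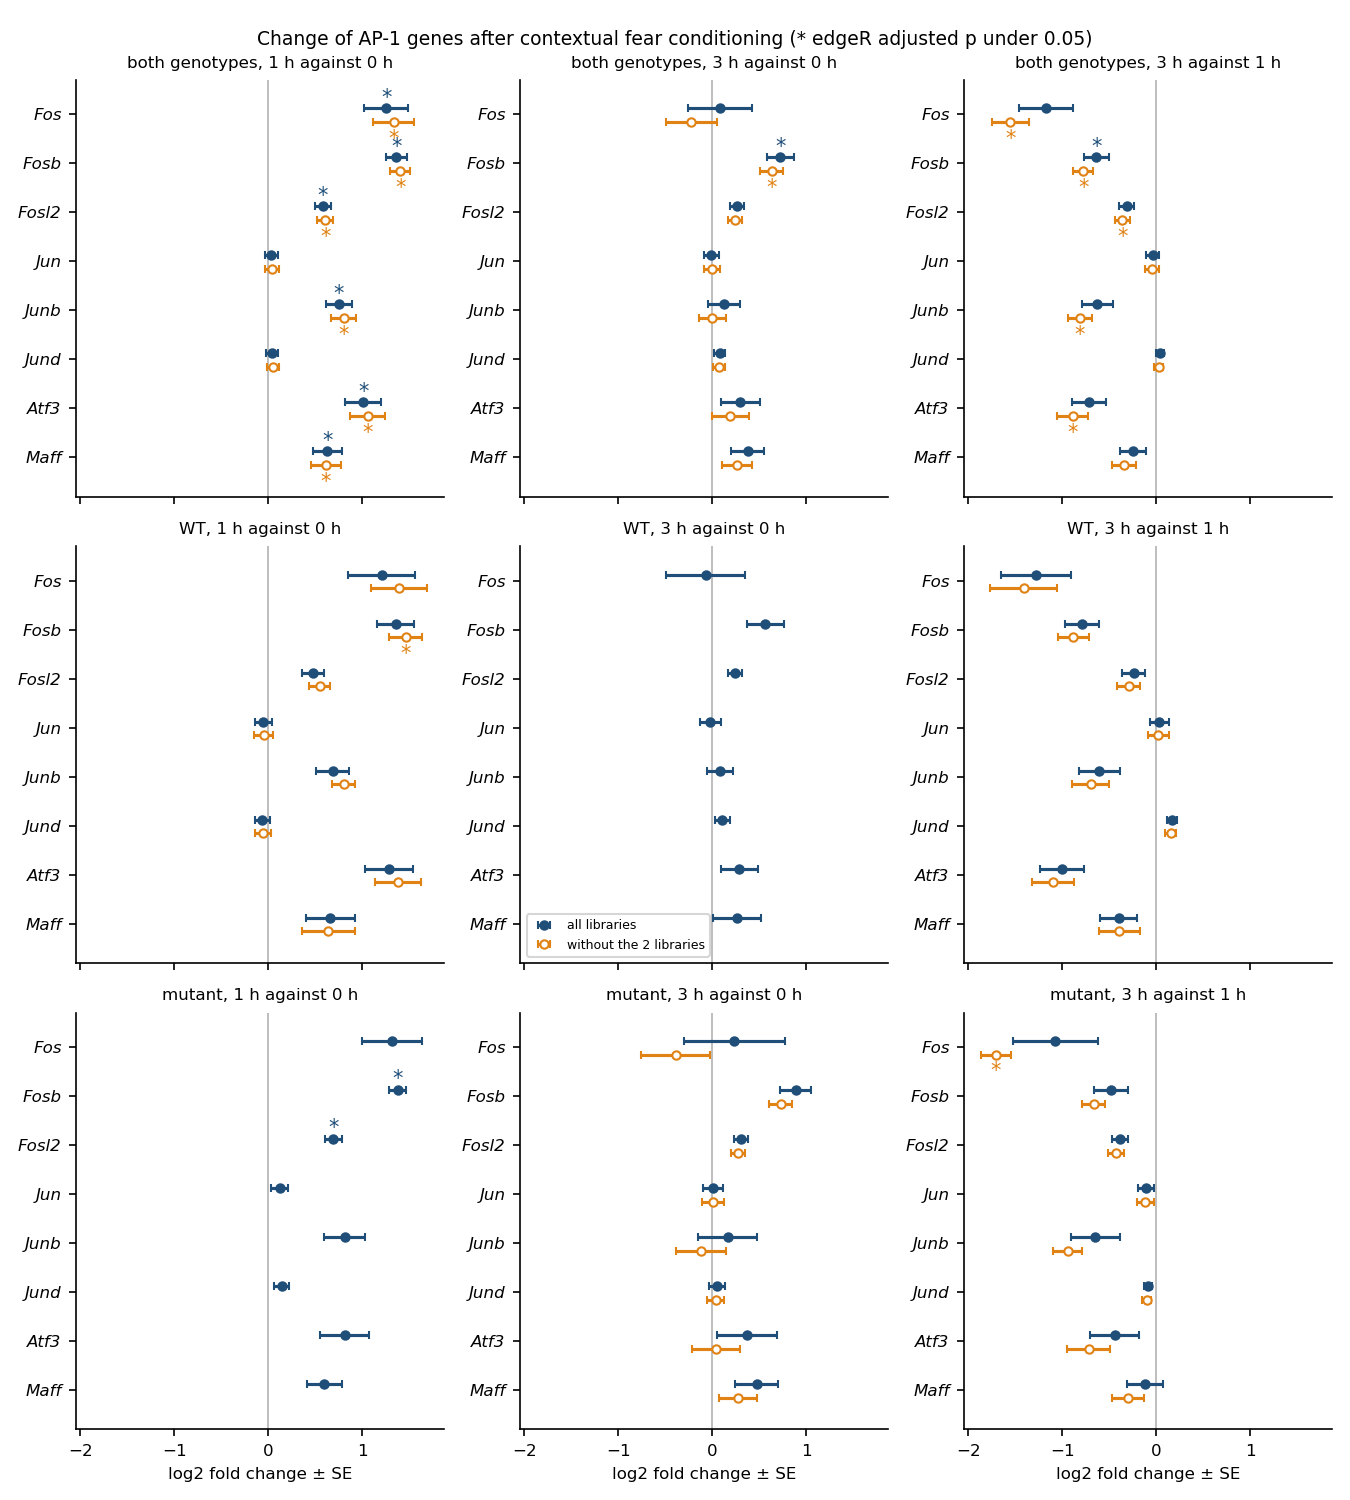
Log2 fold change ± SE (x axis) of the 8 tested AP-1 genes for 1 h against 0 h, 3 h against 0 h and 3 h against 1 h (columns), in both genotypes, WT and mutants (rows); filled points use all libraries, open points leave out the 2 discordant libraries, and asterisks mark an edgeR adjusted p under 0.05. Against 0 h in both genotypes, Fos is at 1.25 at 1 h and 0.08 at 3 h, and Fosb is at 1.36 and 0.72.

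Relative to Fos, Fosb had a greater median level at the later time. The ratio of Fosb to Fos CPM had a median of 0.919 at 1 h in both genotypes and of 1.251 in WT (0.83 to 2.661) and 1.839 in mutants (0.714 to 2.11) at 3 h. At 0 h it was 0.855 in WT (0.577 to 1.214) and 1.176 in mutants (0.418 to 1.574). Without the discordant libraries the median was 0.835 in WT at 1 h (0.772 to 1.141) and 1.937 in mutants at 3 h (1.59 to 2.11). No test was made of these ratios. The WT ranges overlap, and with all libraries so do the mutant ranges, that at 1 h being 0.789 to 1.038. Only without the discordant library did the mutant range at 3 h lie above those at 0 and 1 h. The ratio of Junb to Jun CPM had medians of 0.478 in WT and 0.529 in mutants at 0 h, 0.757 and 0.776 at 1 h, and 0.516 and 0.513 at 3 h, and without the discordant libraries of 0.805 in WT at 1 h and 0.42 in mutants at 3 h.

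Between genotypes, no AP-1 gene was called at any time. At 0 h edgeR called 0 of 17336 genes (0%), with 1066 genes and 0 members at an unadjusted p under 0.05. At 1 h it called 0 of 17261 (0%), with 1487 genes and 1 member. At 3 h it called 0.0115% of 17394 genes, with 1107 genes and 2 members at an unadjusted p under 0.05. Without the discordant library of each time, 0.236% of genes at 1 h and 0.103% at 3 h were called, and again no member. DESeq2 called no member at any time, against 0.0883%, 0.669% and 0.271% of genes at 0, 1 and 3 h. The median log2 difference of mutant against WT over the tested members was 0.05 at 0 h, 0.14 at 1 h and 0.22 at 3 h, and without the discordant libraries 0.06 at 1 h and -0.07 at 3 h.

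At 0 h Fos was at 11.14 ± 5.558 CPM in WT and 11.57 ± 6.217 CPM in mutant mice (SD, n = 6 each), a log2 difference of 0.07 with an SE of 0.42. Fosb was at 9.161 ± 2.443 and 10.17 ± 1.634 CPM, a difference of 0.14 (SE 0.17). These SEs leave room for a difference in either direction. At 1 h Fos was at 25.49 ± 8.494 CPM in WT and 28.79 ± 3.785 CPM in mutant mice (log2 difference 0.17, SE 0.23), and 28.25 ± 5.733 CPM in the 5 concordant WT libraries (0.02, SE 0.14). The member with the smallest p at 1 h was Jund, at 180.6 ± 12.41 CPM in WT and 200.1 ± 6.154 CPM in mutant mice. Its log2 difference of 0.15 (SE 0.04) had an edgeR p of 0.00504 and an adjusted p of 0.356, with 4 of 6 mutant libraries above every WT library, and it was 0.14 (edgeR adjusted p = 0.307) without the discordant library. At 3 h Jund lay the other way, at 203.0 ± 13.48 CPM in WT and 187.1 ± 11.18 CPM in mutant mice (-0.12, SE 0.05, edgeR adjusted p = 0.777, and -0.13 without the discordant library).

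Atf3 and Fosb had the highest point estimates at 3 h. Atf3 was at 0.8256 ± 0.2848 CPM in WT and 1.272 ± 0.5915 CPM in mutant mice, a log2 difference of 0.66 (SE 0.28, edgeR adjusted p = 0.766), and of 0.41 without the discordant library. Fosb was at 13.56 ± 3.209 and 18.89 ± 6.758 CPM, a log2 difference of 0.46 (SE 0.21, edgeR adjusted p = 0.788), and of 0.29 without it. Fos changed sign there, from 0.38 (SE 0.50) to -0.22 (SE 0.35). Over all 36 libraries with time as a covariate, all 9 members passed the filter and none was called, where 1.3% of 18186 genes were. Atf3 was closest (0.44, SE 0.16, edgeR adjusted p = 0.156), and 0.31 (adjusted p = 0.289) without the 2 libraries, where 2.77% of genes were called. Without them Fos went from 0.21 to -0.06 and Junb from 0.10 to -0.03. The 2 members at an unadjusted p under 0.05 were Atf3 and Fosb, where 15.2% of genes were, and 1 member was without the 2 libraries. DESeq2 called no member and 3.07% of genes.

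**Figure D4:**
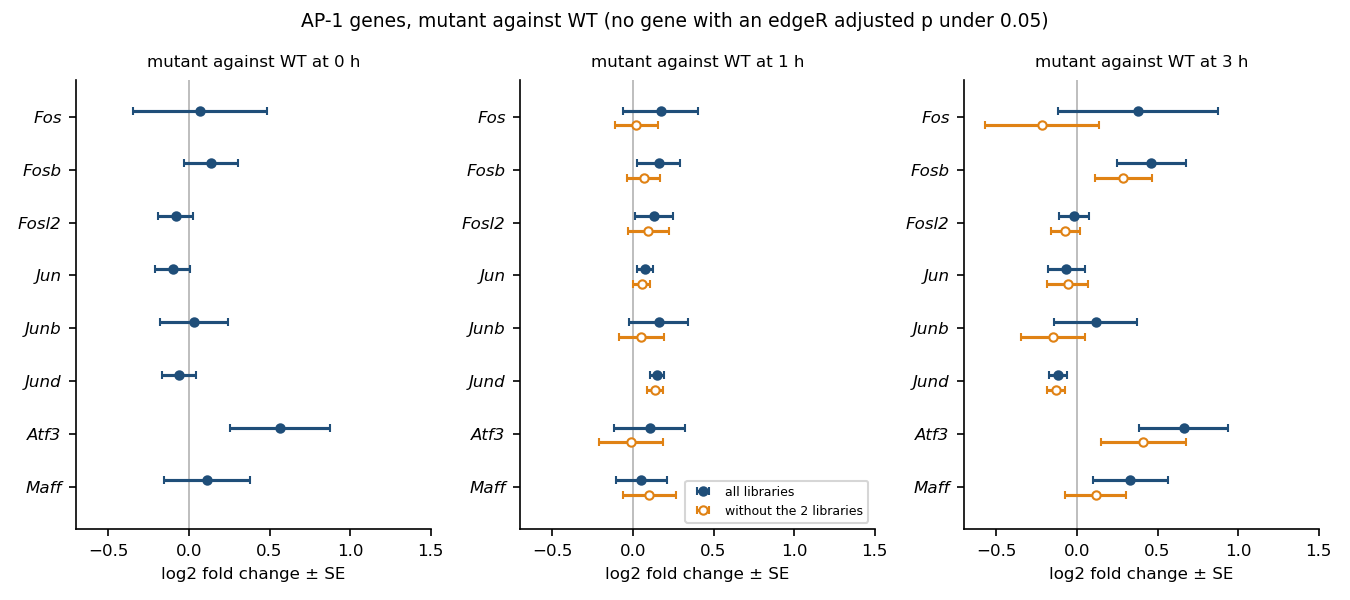
Log2 difference ± SE of mutant against WT (x axis) for the 8 tested AP-1 genes at 0, 1 and 3 h (n = 6 libraries per group); filled points use all libraries, open points leave out the discordant library of that time. No point has an edgeR adjusted p under 0.05, and Fos at 3 h moves from 0.38 to -0.22.

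Sex as labelled was also compared, over the 6 groups. No member was called (edgeR), where 0.0825% of 18186 genes were, and DESeq2 with the same design called no member and 0.0715% of genes. Atf3 was the 1 member at an unadjusted p under 0.05 (male against female -0.35, SE 0.16, edgeR adjusted p = 0.948), where 5.08% of genes were. In this comparison the 2 discordant libraries count under labels that their sex transcripts contradict. Without them 0.082% of genes were called and the Atf3 difference was -0.23 (edgeR adjusted p = 0.787). Fos went from -0.23 to 0.02.

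Within groups, libraries high in Fos were also high in Junb and Fosb. For each gene the group mean of log2 CPM was subtracted, and 28 pairs of the 8 tested members were correlated over 36 libraries, with permutation within groups (100000 permutations) and adjustment over the 28 pairs. Fos and Junb had Pearson's r = 0.893 and Spearman's rho = 0.872 (permutation p = 1e-05 each, the smallest these permutations can give, adjusted p = 0.00014 each). Leaving out the 2 libraries farthest from the median of Fos gave r = 0.871. Fos and Fosb had r = 0.752 and rho = 0.722 (adjusted permutation p = 0.00014 each), with r = 0.645 without the farthest 2. Both pairs held without the discordant libraries, at r = 0.828 and 0.617 over 34 libraries (adjusted permutation p = 0.00028 and 0.014).

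Of the 28 pairs, 7 passed by Pearson's r with all libraries and 4 without the discordant ones. The other 2 that held were Junb with Atf3 (r = 0.653, and 0.494 without) and Fosb with Fosl2 (r = 0.578, and 0.513 without). Fos with Fosl2 (0.504, and 0.422 without), Fos with Atf3 (0.574, and 0.373) and Fosb with Junb (0.595, and 0.378) no longer passed. Fos was not shown to vary with its partner genes Jun (r = 0.296, rho = 0.269, adjusted permutation p = 0.2 and 0.25) or Jund (r = 0.197, rho = 0.255, 0.39 and 0.26). Leaving out the 2 libraries farthest from the median of Fos gave r = 0.339 for Jun and 0.368 for Jund. Without the discordant libraries r was 0.311 for Jun and 0.158 for Jund, and 0.409 and 0.413 when the farthest 2 of those were also left out. All values in a library share its depth, dissection and normalization.

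**Figure D5:**
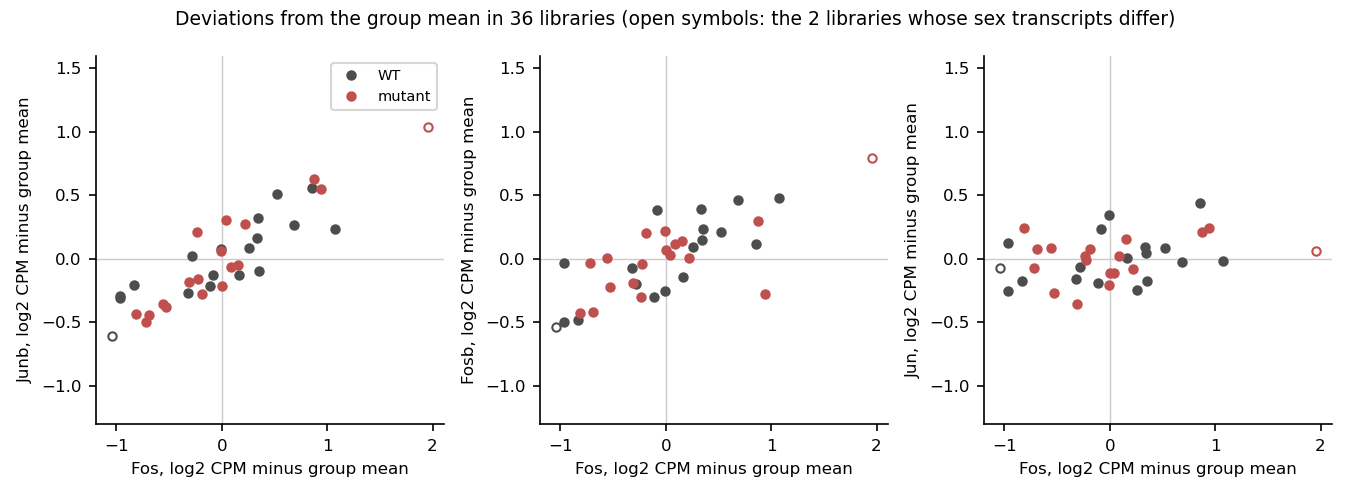
Deviation of Fos from its group mean (x axis, log2 CPM) against the deviation of Junb, Fosb and Jun (y axes, log2 CPM) in 36 libraries. Colours give the genotype, and open symbols are the 2 discordant libraries. Points rise together for Junb (r = 0.893) and Fosb (r = 0.752) and scatter for Jun (r = 0.296).

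The genes whose log2 CPM pattern over the 36 libraries was most like Fos, among 18186 genes and described without a test, were the activity-regulated genes Egr2 (r = 0.955), Arc (r = 0.911) and Egr1 (r = 0.908). Over the 34 libraries without the discordant ones r was 0.961, 0.903 and 0.919, and Nr4a1 took the place of Arc among the first 3. Egr2, a zinc finger factor, went from 3.699 ± 2.133 to 9.216 ± 4.484 CPM between 0 and 1 h in WT and from 3.476 ± 2.102 to 12.55 ± 3.649 CPM in mutant mice, and was at 10.74 ± 2.78 CPM in the 5 concordant WT libraries at 1 h. Arc, which acts in AMPA receptor endocytosis, went from 128.2 ± 25.51 to 235.4 ± 96.88 CPM and from 127.3 ± 54.07 to 233.6 ± 53.32 CPM, and was at 259.9 ± 85.21 CPM in those 5. The genes most like Fosb were Irs2 (r = 0.829), an adaptor of the insulin receptor, Egr4 (r = 0.824) and Gadd45b (r = 0.82), with r = 0.846, 0.835 and 0.808 without the discordant libraries, where Dnajb5 took the place of Gadd45b. Irs2, like Fosb, lay above its 0 h level at 3 h, at 67.72 ± 8.523 CPM against 56.39 ± 7.732 CPM in WT mice. In mutant mice it was at 71.42 ± 7.199 against 55.66 ± 6.569 CPM (70.87 ± 7.903 without the discordant library). Irs2 was picked for its likeness to Fosb in these libraries, so this is no separate evidence of a shared response.

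Partners, upstream regulators and targets of AP-1 were followed by lists chosen by symbol. Of 15 other leucine zipper partners, 14 were tested at 1 h against 0 h in both genotypes, and Jdp2, a repressor that pairs with Jun proteins, was the 1 called (0.30, SE 0.06, edgeR adjusted p = 0.0203), where 0.927% of all genes were called higher. It was also called at 3 h (0.27, SE 0.07, edgeR adjusted p = 0.0352), where 1.16% were. The list's median log2 fold changes were 0.07 at 1 h and 0.01 at 3 h, against -0.01 over all genes at both times. Between genotypes, Atf5 was the 1 partner called, over all time points (0.31, SE 0.06, edgeR adjusted p = 0.00409), where 1.3% of genes were called. Without the discordant libraries these calls were made again. Jdp2 was at 0.32 and 0.27 (edgeR adjusted p = 0.00698 and 0.0338), where 1.63% and 2.05% of genes were called higher. Atf5 was at 0.33 (edgeR adjusted p = 0.00143), where 2.77% of genes were called.

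All 23 kinases and factors upstream of the Fos and Jun promoters were tested, and 2 were called higher at 1 h, against 0.927% of all genes. These were Srf, known to act on Fos through a CArG box farther upstream than the windows searched here (0.20, SE 0.04, edgeR adjusted p = 0.0116), and Creb1, which encodes CREB (0.13, SE 0.03, edgeR adjusted p = 0.0399). Srf was also called in mutants alone (0.24, SE 0.04, edgeR adjusted p = 0.0255), where 0.301% of genes were called higher. Mrtfa, an actin-regulated cofactor of SRF, was called at 3 h against 0 h (0.35, SE 0.06, edgeR adjusted p = 0.00609) and against 1 h (0.20, SE 0.05, edgeR adjusted p = 0.0471), where 1.16% and 0.128% of genes were called higher. Without the discordant libraries Srf was at 0.22 and Creb1 at 0.13 at 1 h (edgeR adjusted p = 0.000168 and 0.0254), and Mrtfa at 0.38 against 0 h and 0.22 against 1 h (edgeR adjusted p = 0.000789 and 0.00396), where 0.656% of genes were called higher against 1 h. Then Elk4, a ternary complex partner of SRF, was also called higher at 1 h (0.24, edgeR adjusted p = 0.0241) and Mrtfb higher at 3 h (0.14, edgeR adjusted p = 0.0279). Elk4 (-0.27) and Srf (-0.15) were called lower at 3 h than at 1 h (edgeR adjusted p = 0.00599 and 0.00766). In that setting 1.63% of all genes were called higher at 1 h and 2.05% higher at 3 h against 0 h, and 1.43% lower at 3 h than at 1 h. The median of this list was -0.01 at 1 h, as over all genes, and no regulator was called between genotypes.

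Of 16 genes described as AP-1 targets, 12 were tested and none was called by edgeR in any comparison, with or without the discordant libraries. At 1 h, 3 of them had an unadjusted p under 0.05 against 0 h in both genotypes, as did 12.8% of all genes tested. Nptx2, a neuronal pentraxin at excitatory synapses, was closest (0.26, SE 0.07, edgeR adjusted p = 0.0594, and 0.0601 without those libraries). At 3 h, 2 did, against 15.1% of all genes, and the adhesion receptor Cd44 was closest (-0.40, SE 0.12, edgeR adjusted p = 0.0819, and 0.0544 without). Between genotypes at 1 h, 2 did, against 8.61% of all genes, with Ccnd1, which encodes cyclin D1, closest (-0.35, SE 0.08, edgeR adjusted p = 0.215, and 0.114 without). The list's medians were 0.03 at 1 h and -0.02 at 3 h against 0 h.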

How the data were processed

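RNA was poly-A selected and sequenced in paired ends. The authors aligned reads to mm10 with STAR 2.7.8a and counted them with featureCounts 2.0.1, and deposited raw counts per Entrez gene for each library. The annotation, strand setting and treatment of multimapping reads are not given in the sources used here. The 36 dorsal hippocampus libraries of the second cohort were used, and 8 whole hippocampus libraries were not analysed here. Symbols were found for 25275 of 27179 genes; the 1904 others held 1.284% of counts.

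Counts were tested with the quasi-likelihood F-test of edgeR 4.0.16 in R 4.3.3 (TMM, filterByExpr with a minimum count of 10, labelled sex as covariate, and genotype or time where pooled), only on the libraries compared, with Benjamini-Hochberg adjustment over all genes tested and a call at an adjusted p under 0.05. The study's methods name DESeq2, which was run as an alternative (1.42.0). CPM were scaled by TMM over 36 libraries. Log2 CPM used a prior count of 2. Alternatives were other normalization, filters, covariates, a replicate block, and leaving out each library. Leaving out the 2 discordant libraries was also tried, and its use for the correlations, likeness and ratios was added after seeing the data.

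The members and gene lists were chosen with earlier results of these data known. Named genes were all members, called genes of the lists or the one with the smallest p, and the 3 genes most like Fos and Fosb. None of the 90 pairs of libraries within groups was identical. Each library is labelled as a separate sample. The fits were tested on simulated data.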

Additional observations from a re-analysis of the deposited data

Results flagged for a closer look

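Of 54 sets of 6 libraries (9 genes in 6 groups), 6 had a highest or lowest library whose gap to the nearest other, divided by the range of the group, exceeded Dixon's 95% critical value for 6 samples. For independent, normally distributed values this happens by chance, at either end, in about 1 in 20 groups. The values here were CPM without log transformation, and the genes share libraries, so that rate may not apply. All 6 were at the high end. In 2 of them the library was the one labelled mutant 3 h female 2, whose sex transcripts went against its label: Fos at 43.9 CPM (next 11.59, ratio 0.862) and Maff at 2.46 CPM (next 1.389, ratio 0.742). Atf3 in the library labelled mutant 0 h male 1 was at 1.849 CPM, with the next at 0.9431 CPM (ratio 0.808). Fosl2 in WT 3 h male 2 was at 79.67 CPM, with the next at 62.95 CPM (ratio 0.691). Fosl1 stood out in WT 0 h female 3 at 0.107 CPM (ratio 0.718) and in WT 1 h male 3 at 0.3104 CPM (ratio 0.648), the latter from 21 counts.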

How the results depend on the processing

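The 6 calls at 1 h against 0 h in both genotypes were made under each of the other normalization, filters, covariates and DESeq2; leaving out single libraries gave 5 to 6. Calls of members in other comparisons moved more. DESeq2 with and without sex gave 3 and 2 for WT 1 h against 0 h, 2 and 1 for WT 3 h against 1 h, 4 and 4 for mutant 1 h against 0 h, 2 and 1 for mutant 3 h against 0 h, 1 and 1 for mutant 3 h against 1 h, 2 and 2 for 3 h against 0 h in both genotypes, and 5 and 4 for 3 h against 1 h in both. Fitting all 36 libraries gave 1 for WT 1 h against 0 h. Without the 2 discordant libraries there was 1 for WT 1 h against 0 h, 1 for mutant 3 h against 1 h and 5 for 3 h against 1 h in both. With all libraries, no filter gave 0 and a replicate block gave 0 for 3 h against 1 h in both, so the Fosb call was lost.

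Leaving out 1 library gave 0 to 1 members for WT 1 h against 0 h (1 without WT 1 h male 1), 2 to 4 for mutant 1 h against 0 h (4 without mutant 0 h male 1), 0 to 1 for mutant 3 h against 1 h (1 without mutant 3 h female 2), 1 to 2 for 3 h against 0 h in both (2, with Fosl2, without WT 0 h male 1 or mutant 0 h female 2) and 0 to 5 for 3 h against 1 h in both. In the last, 15 single libraries each took the count to 0. Leaving out WT 1 h female 2 or WT 3 h male 2 gave a call of Fosl2 and not of Fosb. Over all 24 of these fits the edgeR adjusted p of Fosb reached 0.0841.

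None of the following log2 values was called. Without the 2 discordant libraries, mutant against WT changed sign for Atf3 at 1 h (-0.0149), Fos (-0.22) and Junb (-0.15) at 3 h and Fos (-0.062), Fosl2 (-0.0248) and Junb (-0.0281) over all times, as did 3 h against 0 h for Fos in both genotypes (-0.22) and for Fos (-0.39) and Junb (-0.12) in mutants. Then the genotype difference in the response also changed sign for Fos (-0.0441) and Fosb (-0.0704) at 1 h and for Fos (-0.32), Junb (-0.19) and Atf3 (-0.16) at 3 h, and male against female for Fos (0.0216) and Fosl2 (0.0105). Labelled replicate numbers did not pair the libraries (correlations of -0.188 to 0.253, median 0.016, over 90 pairs); with the replicate block, Junb in mutant against WT at 0 h became -0.026 and Fosb in the difference of the 1 h response -0.0054. Over single libraries left out, Fos ran from -0.26 to 0.24 (WT 3 h against 0 h), -0.22 to 0.25 (both), -0.39 to 0.61 (mutant), and in mutant against WT from -0.20 to 0.36 at 0 h, -0.22 to 0.55 at 3 h and -0.0021 to 0.33 over all times. Junb ran from -0.0285 to 0.16 (WT 3 h against 0 h) and -0.12 to 0.35 (mutant), and in mutant against WT from -0.13 to 0.13 at 0 h and -0.15 to 0.24 at 3 h. Jun ran from -0.10 to 0.0039 (WT 1 h against 0 h), -0.10 to 0.0415 (WT 3 h against 0 h), -0.072 to 0.0732 (WT 3 h against 1 h), -0.0487 to 0.0259 (both, 3 h against 0 h), -0.0664 to 0.0757 (mutant, 3 h against 0 h) and -0.15 to 0.0227 (mutant against WT at 3 h). In mutant against WT, Fosl2 ran from -0.13 to 0.0022 at 0 h and -0.0724 to 0.062 at 3 h, Maff from -0.0075 to 0.32 at 0 h and -0.0301 to 0.11 at 1 h, and Atf3 from -0.0229 to 0.25 at 1 h; over all times Fosl2 ran from -0.0207 to 0.0354 and Jund from -0.0347 to 0.0086. The genotype difference in the 1 h response ran from -0.19 to 0.36 for Fos, -0.11 to 0.10 for Fosb and -0.22 to 0.0667 for Maff, and in the 3 h response from -0.32 to 0.74 for Fos, -0.0121 to 0.15 for Fosl2, -0.0463 to 0.12 for Jun, -0.19 to 0.26 for Junb, -0.12 to 0.0266 for Jund and -0.16 to 0.41 for Atf3. Male against female ran from -0.0496 to 0.0026 for Fosl2 and -0.038 to 0.0063 for Jund. The cause was not tested. Fosl1 had at most 21 counts in a library and passed the filter in no time or genotype comparison that used all its 12 or 24 libraries.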
